A study of Mus musculus with 7 samples.

Results

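Direct pathway spiny projection neurons (dSPNs) were the nuclei that the deposited annotation calls D1.MSN, 1809 of the 4524 nuclei read from the striatum of 7 male C57BL6/J mice. HttQ175/+ mice carry 1 knock-in copy of huntingtin (Htt), in which the CAG repeat is expanded in the germ line, and serve as a model of Huntington's disease. The 4 HttQ175/+ mice gave 367, 509, 177 and 243 dSPN nuclei, and the 3 wild-type (WT) mice gave 163, 119 and 231. HttQ175/+ mouse 1 was 15 months old and the other 6 mice were 14 months old. Each mouse was 1 droplet library of nuclear RNA tagged near the 3' end, so the mouse was the replicate throughout, and mice are numbered within their genotype. The labels give each library a code of its own and do not say how many animals went into it, so p-values measure the spread between these 7 libraries. The study compared the genotypes to see how the expanded allele changes striatal cell types.

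As background, dSPNs are inhibitory neurons that send their axons from the striatum to the substantia nigra and the internal globus pallidus, where they release GABA with substance P and dynorphin and promote movement. Dopamine acts on them through the D1 receptor, which couples through the G protein subunit encoded by Gnal to adenylyl cyclase 5 and so raises cAMP. Phosphodiesterases break cAMP and cGMP down again, and RGS proteins shorten the signalling of the G proteins that oppose cAMP.

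Levels are given as CPM, counts per 1000000, which is the mean over the dSPN nuclei of a mouse of each nucleus's share of unique molecular identifiers (UMIs, 1 per captured transcript). The nuclei of a mouse held 334640.0 to 906138 UMIs in all. Median UMIs per dSPN nucleus were 2332, 1647, 2636 and 2052 in HttQ175/+ mice 1 to 4, against 2776, 2816 and 2716 in WT mice 1 to 3, and the genotypes did not overlap (exact two-sided permutation test, p = 0.0571, the smallest that 35 divisions of 7 mice allow). Taken over dSPN and indirect pathway (iSPN) nuclei together, dSPNs made up 73.1%, 65.8%, 65.6% and 67.7% in HttQ175/+ mice, against 62.9%, 60.4% and 59.2% in WT mice, a difference of 7.19 percentage points (exact two-sided permutation test, p = 0.0571). Of all nuclei they made up 40.0% ± 4.14 in HttQ175/+ mice and 38.5% ± 3.12 in WT mice (SD, n = 4 and 3; exact two-sided permutation test, p = 0.743). Of the 1809 dSPN nuclei, 2 had a cell barcode that another library also held. Drd2, the dopamine receptor of iSPNs, was at 2.21 ± 2.13 CPM in HttQ175/+ dSPNs and 0.812 ± 0.706 CPM in WT dSPNs, and a UMI of at least 1 of the iSPN genes Drd2, Adora2a, Penk and Gpr6 was found in 11.7% of HttQ175/+ and 12.3% of WT dSPN nuclei.

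The transcriptome of dSPNs differed between the genotypes in both directions. limma tested 8796 genes, of which 128 (1.46%) were higher and 223 (2.54%) lower in HttQ175/+ mice at a Benjamini-Hochberg adjusted p under 0.05, 3.99% in all. Fold changes in dSPNs are log2 values of HttQ175/+ over WT with their SE, on the scale of log2(CPM + 3.67 CPM), which makes the change of low genes smaller, and "rose" and "fell" are used for genes past that threshold. The split between directions depended on the scaling between mice: without trimmed-mean (TMM) scaling the median of all genes moved by over 0.1, to 0.14 against 0.02 with it, and 226 genes were higher and 162 lower. Leaving out HttQ175/+ mouse 1 gave 57 higher and 153 lower genes, HttQ175/+ mouse 2 65 higher, HttQ175/+ mouse 4 73 higher, and WT mouse 1 80 higher and 126 lower. When each nucleus was thinned to 1128 UMIs, 41 genes were higher and 124 lower among 6246 tested, and 148 of these 165 were genes called with all UMIs, in the same direction. Other fits took the deeper nuclei (at least 2000 UMIs), an equal 119 nuclei per mouse, sums of UMIs per mouse in place of means over nuclei, or every gene with at least 1 UMI (no filter), and a gene given below with its own test that lost the threshold in any of them is given with the highest adjusted p over all alternative fits. A gene entered the main fit by reaching 18.3 CPM in 3 mice, and 42 called genes reached it in HttQ175/+ mice only and 24 in WT mice only, so that such a gene had to differ between the genotypes to be tested at all. Among the genes named below these are Sfmbt2, Cers2, Col11a1, Ndst3, Camk2d, Faah, Ahsa2, Map2k3, Neurod2, Cbx8, Nrn1 and Emb, in HttQ175/+ mice only, and Slc26a10, Nrp1 and Abi3bp, in WT mice only. Without the filter 14 of these 15 passed among 17076 genes, and Map2k3 did not (adjusted p = 0.052). That fit used the same values of the same mice, and the 15 genes were already calls of the main fit. Most were therefore likely to pass again, and this count cannot show that the filter had no effect. Counts that include these 15 genes are descriptions of the lists. After scaling, the genotypes did not overlap for 347 of the 351 called genes. Over all 8796 tested genes, HttQ175/+ mice were all above WT mice for 678 and all below for 742. Non-overlap, where given below, therefore adds little to a call.

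**Figure D1:**
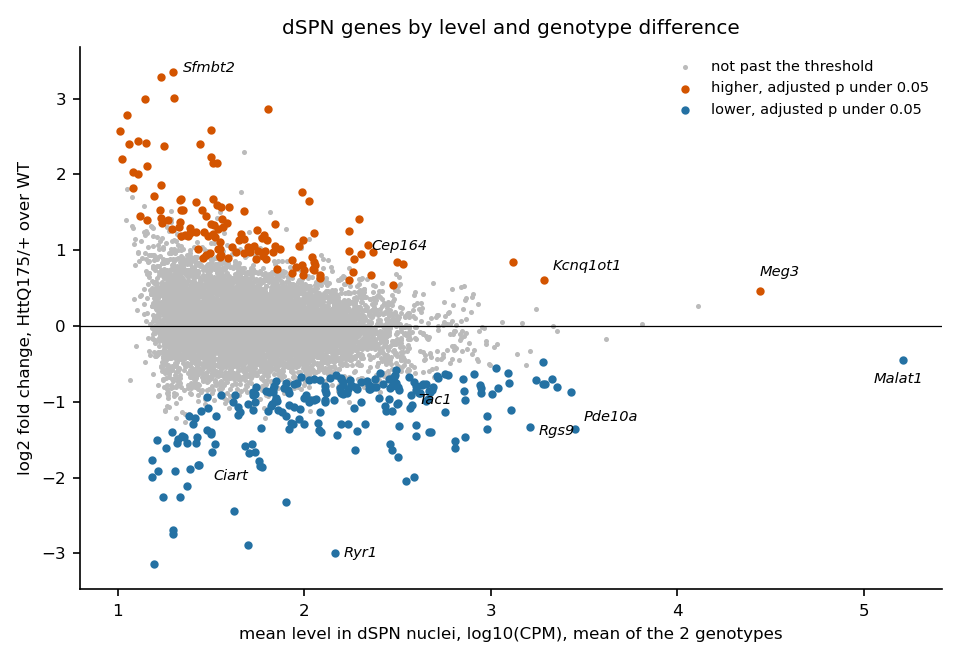
Each point is 1 of the 8796 genes tested in dSPNs, by its mean level (log10 CPM, x axis) and its log2 fold change, HttQ175/+ over WT (y axis). Orange points are the 128 genes higher and blue points the 223 genes lower at an adjusted p under 0.05. Pde10a and Rgs9 are labelled among the falls of high level, and Meg3 and Malat1 are the genes of highest level past the threshold.

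The 6 marker genes of dSPNs divided into 3 that fell and 3 that did not pass the test, and only 1 passed without HttQ175/+ mouse 1 or 3 or WT mouse 3. Tac1, the precursor of substance P, was at 221, 289.9, 246 and 237 CPM in HttQ175/+ mice 1 to 4, against 443, 429 and 589 CPM in WT mice 1 to 3. All 4 HttQ175/+ mice lay below all 3 WT mice, and Tac1 fell by 1.08 on the log2 scale (SE 0.16, adjusted p = 0.00165). Drd1, the dopamine receptor that names these neurons, was at 334, 373, 243 and 272 CPM in HttQ175/+ mice 1 to 4, against 362, 499 and 552 CPM in WT mice 1 to 3. HttQ175/+ mouse 2 lay above WT mouse 1 in these levels, and the genotypes did not overlap after scaling between mice (log2 fold change -0.74 ± 0.19, adjusted p = 0.0377). Drd1 did not pass without HttQ175/+ mouse 1, 3 or 4 or WT mouse 2 or 3, without TMM scaling, without the filter, with equal nuclei or in thinned nuclei (adjusted p up to 0.138). A UMI of Drd1 was found in 26.4% ± 6.25 of nuclei in HttQ175/+ mice and 33.9% ± 5.09 in WT mice after thinning (SD, n = 4 and 3), and these shares overlapped. Pdyn, the precursor of dynorphin, was at 45.9, 60.4, 45.7 and 67.7 CPM in HttQ175/+ mice 1 to 4, against 122, 71.2 and 137 CPM in WT mice 1 to 3 (log2 fold change -1.05 ± 0.24, adjusted p = 0.0255). Pdyn did not pass without HttQ175/+ mouse 1 or 3 or WT mouse 1 or 3, without nuclei holding an iSPN marker UMI or in thinned nuclei (adjusted p up to 0.19).

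The transcription factor Ebf1, which is needed for the differentiation of these neurons, was at 274, 311, 321 and 291 CPM in HttQ175/+ mice 1 to 4, against 258, 200.1 and 278 CPM in WT mice 1 to 3. Isl1, a LIM homeobox factor that sets the direct pathway fate in development, was at 71.7, 87.9, 101 and 76.9 CPM in HttQ175/+ mice 1 to 4, against 76, 89.1 and 75.9 CPM in WT mice 1 to 3. Slc35d3, a transporter-like protein that helps D1 receptors leave the endoplasmic reticulum, was at 74.5, 65.7, 58 and 56.5 CPM in HttQ175/+ mice 1 to 4, against 77.5, 60.3 and 79.9 CPM in WT mice 1 to 3. For these 3 genes the genotypes overlapped, and the fitted differences were 0.17 ± 0.16 (adjusted p = 0.65) for Ebf1, -0.06 ± 0.18 (adjusted p = 0.906) for Isl1 and -0.30 ± 0.20 (adjusted p = 0.481) for Slc35d3. The sign of the Isl1 difference turned with the setting, to 0.06 without TMM scaling. Over the 6 markers the median was -0.52, beside 0.02 over all tested genes, and their summed level was 1000.1 to 1188 CPM in HttQ175/+ mice against 1338 to 1712 CPM in WT mice. In WT mice all 6 were higher in dSPNs than in iSPNs, Drd1 at 471 against 24.9 CPM and Isl1 at 80.3 against 2.06 CPM, and since such genes define the type this is no test. Eccentric spiny projection neurons, a minor class with features of both pathways, held as much Tac1 or more in WT mice (732 ± 455 CPM against 487 ± 88.7 CPM in dSPNs, SD, n = 3). So it was for Pdyn (194 ± 73.05 against 110 ± 34.5 CPM) and Slc35d3 (80.35 ± 8.8 against 72.5 ± 10.7 CPM), while Drd1, Ebf1 and Isl1 were lower there. Ebf1 was at 573 ± 197 CPM in WT endothelial nuclei against 245 ± 40.5 CPM in dSPNs.

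**Figure D2:**
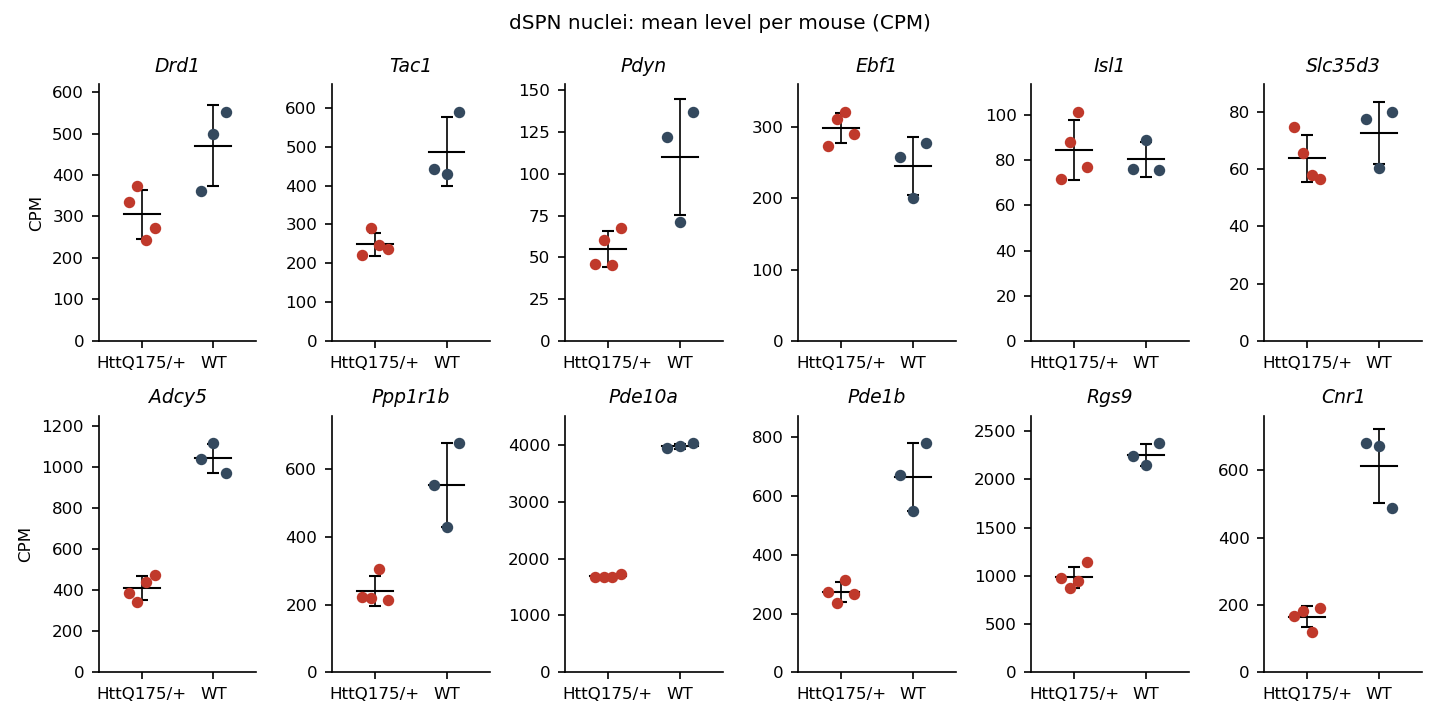
Mean level in dSPN nuclei (CPM, y axes from 0) of the 6 dSPN markers (top row) and of 6 genes of cAMP and G protein signalling (bottom row), with 1 point per mouse, 4 HttQ175/+ mice left and 3 WT mice right; the bars are the mean and SD. The 6 signalling genes separate the genotypes with a clear gap, Pde10a at 1668 to 1732 CPM against 3934 to 4022 CPM, while Ebf1, Isl1 and Slc35d3 overlap.

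The promoters of the 3 markers for which RefSeq gives a single start site in its table (250 bases before to 50 after the start, assembly GRCm38.p6, the patch release of mm10) are shown because all 3 hold TGACG, the core of the cAMP response element, on 1 strand or the other, while 1 of the 3 genes fell and the other two did not pass the test. The other 3 markers have 2 entries each. TGACG is in neither entry of Drd1 or Pdyn, which fell, and in 1 of the 2 entries of Ebf1, which did not pass. Capitals mark TGACG on either strand (read CGTCA on the minus strand of the gene) and, in Tac1, 1 CACGTG, an E-box. The sequences run 5' to 3' on the strand of the gene.
Tac1 (chr6:7554811-7555110, plus strand): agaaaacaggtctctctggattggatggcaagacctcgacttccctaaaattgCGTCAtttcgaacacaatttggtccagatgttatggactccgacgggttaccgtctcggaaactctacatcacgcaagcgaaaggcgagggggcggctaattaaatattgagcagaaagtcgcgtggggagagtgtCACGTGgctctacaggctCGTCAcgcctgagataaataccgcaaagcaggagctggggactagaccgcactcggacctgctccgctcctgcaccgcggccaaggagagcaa
Isl1 (chr13:116309639-116309938, minus strand): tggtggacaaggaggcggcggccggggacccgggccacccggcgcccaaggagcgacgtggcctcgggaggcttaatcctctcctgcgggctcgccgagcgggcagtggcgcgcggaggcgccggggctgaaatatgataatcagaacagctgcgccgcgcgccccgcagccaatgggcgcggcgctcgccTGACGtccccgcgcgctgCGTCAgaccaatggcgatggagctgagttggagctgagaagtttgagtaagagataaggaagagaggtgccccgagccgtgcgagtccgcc
Slc35d3 (chr10:19851410-19851709, minus strand): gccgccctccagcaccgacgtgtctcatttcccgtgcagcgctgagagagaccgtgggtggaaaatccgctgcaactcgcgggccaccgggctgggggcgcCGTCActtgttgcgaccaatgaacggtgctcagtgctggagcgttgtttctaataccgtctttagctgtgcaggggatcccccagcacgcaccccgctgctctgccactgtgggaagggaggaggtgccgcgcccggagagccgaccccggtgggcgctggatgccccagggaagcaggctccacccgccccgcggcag
TGACG starts 197 and 43 bases before the start of Tac1, 59 and 41 bases before that of Isl1 and 149 bases before that of Slc35d3. Among promoters of genes with a single entry it was found on either strand in 26.1% of 111 genes that fell, 32.4% of 71 that rose and 36.7% of 5227 tested, and in 20.6% of 22862 in the whole table. A match is a string of letters and not a known binding site.

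Beyond the markers, 13 genes enriched in dSPNs were listed and 8 passed the filter on low values. Of these, 2 rose (25%) and 1 fell (12.5%), beside 1.46% and 2.54% of all tested genes. Stmn2, which encodes a regulator of microtubules in growing axons, was at 126, 131, 54.2 and 107 CPM in HttQ175/+ mice 1 to 4, against 34.6, 24.7 and 43.5 CPM in WT mice 1 to 3 (log2 fold change 1.35 ± 0.29, adjusted p = 0.0155). Pcdh11x, a protocadherin, was at 116 to 142 CPM in HttQ175/+ mice against 31.4 to 79.1 CPM in WT mice (log2 fold change 1.05 ± 0.25, adjusted p = 0.0299). Sfxn1, a mitochondrial serine transporter, was at 113 to 143 CPM in HttQ175/+ mice against 161 to 244 CPM in WT mice (log2 fold change -0.78 ± 0.18, adjusted p = 0.0235). All 3 separated the genotypes, and each was near the threshold. Stmn2 did not pass without HttQ175/+ mouse 1 or 4 or WT mouse 1 or 2, in the deeper nuclei or in thinned nuclei (adjusted p up to 0.193). Pcdh11x did not pass without HttQ175/+ mouse 1, 2 or 4 or WT mouse 1 or 3, in the deeper nuclei, with equal nuclei or in thinned nuclei (adjusted p up to 0.0984). Sfxn1 did not pass without HttQ175/+ mouse 1, 3 or 4 or WT mouse 2 or 3, without TMM scaling or with equal nuclei (adjusted p up to 0.0865). In the dorsal striatum dSPNs lie in the matrix and in striosomes, patches marked by opioid receptors. Of 11 tested striosome markers 2 fell (18.2%), and both, Tac1 and Pdyn, are also dSPN markers. Of 12 tested matrix markers 3 fell (25%), and of all tested genes 2.54% fell. Id4, an inhibitor of basic helix-loop-helix factors, was at 29.8, 28.4, 15.1 and 22.5 CPM in HttQ175/+ mice 1 to 4, against 73.3, 86.2 and 55.8 CPM in WT mice 1 to 3 (log2 fold change -1.58 ± 0.26, adjusted p = 0.00292). Id4 did not pass in thinned nuclei (adjusted p up to 0.0771). Rasgrp2, a calcium-sensitive activator of Rap1, was at 159 to 269 CPM in HttQ175/+ mice against 359.6 to 469 CPM in WT mice (log2 fold change -1.03 ± 0.18, adjusted p = 0.00482). The lysosomal receptor Gpr155 differed by -0.78 ± 0.19 (adjusted p = 0.028). Gpr155 did not pass without HttQ175/+ mouse 1, 2 or 4 or WT mouse 1 or 2, without TMM scaling or in thinned nuclei (adjusted p up to 0.0972). The list medians were -0.44 and -0.13.

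In the cascade that joins the D1 receptor to cAMP, 23 of 24 listed genes were tested, 3 fell and none rose. Adcy5, the adenylyl cyclase of the striatum, was at 387, 340.1, 439.6 and 475 CPM in HttQ175/+ mice 1 to 4, against 1036, 1113 and 971 CPM in WT mice 1 to 3. No HttQ175/+ mouse came near the lowest WT mouse, and Adcy5 fell by 1.47 ± 0.14 (adjusted p = 5.07e-05). Ppp1r1b encodes DARPP-32, which blocks protein phosphatase 1 when protein kinase A has phosphorylated it, and was at 222, 221, 305 and 214 CPM in HttQ175/+ mice 1 to 4, against 552, 428 and 675 CPM in WT mice 1 to 3 (log2 fold change -1.30 ± 0.18, adjusted p = 0.00122). Drd1 was the third. Gnal, the G protein subunit between receptor and cyclase, was at 239.8, 229, 309 and 333 CPM in HttQ175/+ mice 1 to 4, against 333, 364 and 431 CPM in WT mice 1 to 3, all HttQ175/+ mice being at or below the lowest WT mouse (log2 fold change -0.57 ± 0.17, adjusted p = 0.0797), and did not pass. The median of the 23 genes was -0.33.

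Of 11 tested genes that break down cyclic nucleotides 4 fell (36.4%, beside 2.54% of all tested genes) and none rose. Pde10a, the phosphodiesterase that spiny projection neurons hold in greatest amount, was at 1681, 1676, 1668 and 1732 CPM in HttQ175/+ mice 1 to 4, against 3934, 3968 and 4022 CPM in WT mice 1 to 3. The mice of a genotype lay close together and the genotypes far apart (log2 fold change -1.36 ± 0.10, adjusted p = 1.89e-05). Pde1b, activated by calcium and calmodulin, was at 273, 235, 316 and 268 CPM in HttQ175/+ mice 1 to 4, against 671, 548 and 779 CPM in WT mice 1 to 3 (log2 fold change -1.39 ± 0.16, adjusted p = 0.00028). Pde2a, which cGMP activates, was at 254 to 414 CPM in HttQ175/+ mice against 498 to 561 CPM in WT mice (log2 fold change -0.78 ± 0.17, adjusted p = 0.0202). Pde7b, specific for cAMP, was at 104 to 149 CPM in HttQ175/+ mice against 182 to 202 CPM in WT mice (log2 fold change -0.73 ± 0.17, adjusted p = 0.0256). Pde2a did not pass without HttQ175/+ mouse 1 or WT mouse 1 or 2 or without TMM scaling (adjusted p up to 0.0748). Pde7b did not pass without HttQ175/+ mouse 1 or 2 or WT mouse 1 or 3 or without TMM scaling (adjusted p up to 0.0967). Among 9 tested RGS proteins and partners only Rgs9 fell (11.1%, beside 2.54% of all tested genes) and none rose. Rgs9, whose striatal form speeds the shutdown of Gi and Go signalling, was at 975, 873, 950.2 and 1139.7 CPM in HttQ175/+ mice 1 to 4, against 2242, 2151 and 2373 CPM in WT mice 1 to 3 (log2 fold change -1.33 ± 0.13, adjusted p = 4.66e-05).

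Levels were also compared over the range of dSPN nuclei. After each nucleus was thinned to 1128 UMIs, Pde10a was found in 73.5% ± 3.92 of nuclei in HttQ175/+ mice and 94.1% ± 1.91 in WT mice (SD, n = 4 and 3). The same shares were 45.9% ± 12.3 of nuclei in HttQ175/+ mice and 41.9% ± 4.15 in WT mice for oligodendrocytes, a type that should lack the gene and was thinned to the same depth. Without thinning the shares of dSPN nuclei were 79.7% and 95.3%. The median thinned dSPN nucleus held 2 UMIs of Pde10a in each of the 4 HttQ175/+ mice and 5, 4 and 4 in the WT mice. Summed over the 49 genes of the cascade, phosphodiesterase and RGS lists, the 10th percentile of nuclei held 4, 4, 5 and 5 UMIs in HttQ175/+ mice against 9, 8 and 10 in WT mice. The median was 8, 9, 9 and 9 against 16, 15 and 16, and the 90th percentile was 14, 13, 14 and 15 against 22, 21 and 22. Every percentile computed was thus lower in all HttQ175/+ mice. At so few UMIs, counting spread can carry a lower mean to every percentile, so these values cannot show that each nucleus was lower. The sum includes Pde10a, whose mean per thinned nucleus was 1.91 UMIs in HttQ175/+ mice and 4.595 in WT mice. The mean of the sum was 9.15 and 15.5 UMIs.

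**Figure D3:**
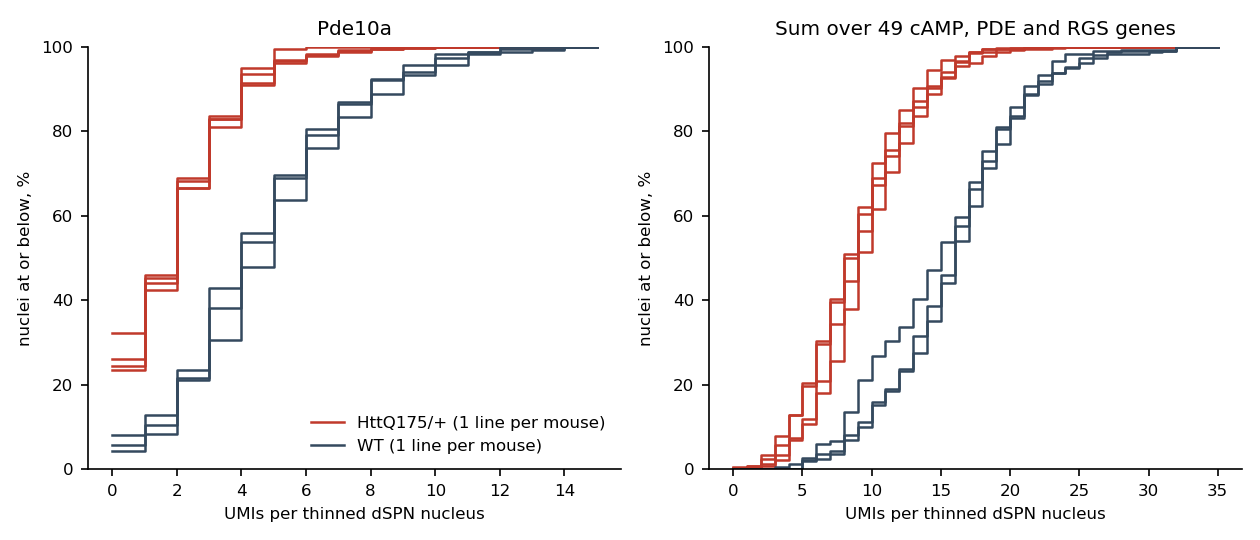
Cumulative share of thinned dSPN nuclei (y axis, %) with at most a given number of UMIs (x axis), for Pde10a (left) and for the sum of the 49 cAMP, phosphodiesterase and RGS genes (right), with 1 line per mouse. The lines of the 4 HttQ175/+ mice lie left of those of the 3 WT mice over most of their length, with 23.5% to 32.2% of nuclei at 0 UMIs of Pde10a against 4.20% to 7.98%.

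Other receptors coupled to G proteins formed the list with the lowest median described here, -0.66. Of 27 listed genes 18 were tested, 9 fell (50%) and 1 rose (5.56%), beside 2.54% and 1.46% of all tested genes. The falls numbered 5 when WT mouse 1 was left out. Cnr1, the cannabinoid receptor that sits on the terminals of these neurons, was at 167, 181, 120.4 and 192 CPM in HttQ175/+ mice 1 to 4, against 679.8, 671 and 488 CPM in WT mice 1 to 3 (log2 fold change -1.999 ± 0.19, adjusted p = 4.66e-05). Htr1b, a serotonin receptor of their axon terminals, was at 47.5, 36.9, 58.2 and 65.7 CPM in HttQ175/+ mice 1 to 4, against 113, 119 and 121 CPM in WT mice 1 to 3, with every HttQ175/+ mouse below every WT mouse (log2 fold change -1.27 ± 0.21, adjusted p = 0.00311). Hrh3, a histamine receptor that couples to Gi, fell (log2 fold change -1.38 ± 0.23, adjusted p = 0.00391). Grm5, Grm3, Gabbr1 and Gpr155 were also among the falls. The gene that rose, Htr2c, encodes a serotonin receptor coupled to Gq and was at 157, 129, 192 and 129 CPM in HttQ175/+ mice 1 to 4, against 81.3, 85.7 and 65.8 CPM in WT mice 1 to 3 (log2 fold change 0.80 ± 0.19, adjusted p = 0.0274), and it is named for its direction after its value was seen. Htr2c did not pass without HttQ175/+ mouse 1 or 3 or WT mouse 1 or 3, in the deeper nuclei or in thinned nuclei (adjusted p up to 0.265). Faah, which degrades the endocannabinoid anandamide, was at 54.6, 59.99, 48.4 and 53.3 CPM in HttQ175/+ mice 1 to 4, against 12.2, 12.9 and 17.4 CPM in WT mice 1 to 3 (log2 fold change 1.59 ± 0.23, adjusted p = 0.00141), and it and Cnr1 were the only 2 of 8 tested endocannabinoid genes past the threshold. Faah did not pass in thinned nuclei (adjusted p up to 0.0761).

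Calcium handling (release, pumps and sensors) held 10 falls among 32 tested genes (31.25%, beside 2.54% of all tested genes), with 1 rise and a median of -0.44. Leaving out 1 mouse gave 9 to 11 falls. The count was the most of the 46 lists. The share that fell was larger among dSPN markers (50%), other receptors coupled to G proteins (50%) and genes of cyclic nucleotide breakdown (36.4%). Ryr1, a calcium release channel of the endoplasmic reticulum, was at 29.8, 33.2, 51.7 and 20.3 CPM in HttQ175/+ mice 1 to 4, against 249, 262 and 262 CPM in WT mice 1 to 3 (log2 fold change -2.99 ± 0.24, adjusted p = 1.98e-05). The share of thinned dSPN nuclei with a UMI of Ryr1 was 3.09% in HttQ175/+ mice and 26.1% in WT mice, and the share of oligodendrocytes was also lower, 2.53% against 16.2%. Pcp4, a small protein that alters calcium binding to calmodulin, was at 322, 369, 310.1 and 295 CPM in HttQ175/+ mice 1 to 4, against 924, 602 and 1355 CPM in WT mice 1 to 3 (log2 fold change -1.61 ± 0.22, adjusted p = 0.000967). Atp2b1, a calcium pump of the plasma membrane, was at 1609.5 to 1849 CPM in HttQ175/+ mice against 2652 to 2873 CPM in WT mice (log2 fold change -0.81 ± 0.11, adjusted p = 0.00106). Ppp3ca, the catalytic subunit of calcineurin, was at 1496 to 1579 CPM in HttQ175/+ mice against 2374 to 2415 CPM in WT mice (log2 fold change -0.76 ± 0.11, adjusted p = 0.00122). Camk2b, Hpca, Camk4, Rcn1, Itpr1 and Ryr3 were the other falls. Camk2d, a calmodulin-dependent kinase and the rise of the list, was at 62.5, 45.2, 59.4 and 26.3 CPM in HttQ175/+ mice 1 to 4, against 0, 11.2 and 9.35 CPM in WT mice 1 to 3 (log2 fold change 2.40 ± 0.45, adjusted p = 0.00756), and it is named for its direction after its value was seen.

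Of 17 tested calcium channel subunits 3 fell (17.6%, beside 2.54% of all tested genes) and none rose. Cacna2d3, an auxiliary subunit, was at 152 to 219.8 CPM in HttQ175/+ mice against 292 to 360.3 CPM in WT mice (log2 fold change -0.95 ± 0.17, adjusted p = 0.00482). Cacnb2, another auxiliary subunit, and Cacna1e, which forms R-type channels, were near the threshold at -0.67 ± 0.17 (adjusted p = 0.0341) and -0.66 ± 0.16 (adjusted p = 0.0349). Cacnb2 did not pass without HttQ175/+ mouse 1, 2 or 4 or WT mouse 1 or 3, without TMM scaling or in the deeper nuclei (adjusted p up to 0.153). Cacna1e did not pass without HttQ175/+ mouse 1, 2 or 4 or WT mouse 1, 2 or 3, without TMM scaling, without the filter, with equal nuclei or in thinned nuclei (adjusted p up to 0.111). Sodium channels gave 1 fall and 1 rise in 13 (7.69% each, beside 2.54% and 1.46% of all tested genes). Scn4b, the auxiliary subunit behind resurgent sodium current, was at 74.3, 152, 208 and 169 CPM in HttQ175/+ mice 1 to 4, against 540.4, 515 and 589 CPM in WT mice 1 to 3 (log2 fold change -2.05 ± 0.26, adjusted p = 0.000542). Scn9a, a pore-forming subunit best known in sensory neurons, was at 103, 122, 82 and 86.4 CPM in HttQ175/+ mice 1 to 4, against 49.5, 38.1 and 36.4 CPM in WT mice 1 to 3 (log2 fold change 1.06 ± 0.21, adjusted p = 0.00927). The genotypes did not overlap for either gene. Scn4b was also found in fewer thinned oligodendrocytes, 6.39% in HttQ175/+ mice against 17.4% in WT mice. Among 28 tested voltage-gated potassium channel genes 2 fell (7.14%, beside 2.54% of all tested genes). Kcnip2, an auxiliary subunit of A-type channels, was at 179, 162, 258 and 186 CPM in HttQ175/+ mice 1 to 4, against 466, 425 and 453 CPM in WT mice 1 to 3 (log2 fold change -1.32 ± 0.17, adjusted p = 0.000569), and Kcnh4, a channel of the Elk family, fell by 1.14 ± 0.20 (adjusted p = 0.00482). The leak channel Kcnk2 fell among 8 tested inward and leak channels (log2 fold change -0.84 ± 0.18, adjusted p = 0.0167). Kcnk2 did not pass without HttQ175/+ mouse 4 or WT mouse 1 (adjusted p up to 0.0682).

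Among genes of the excitatory synapse, RNA of the kainate receptor subunit Grik2 and of its auxiliary subunits Neto1 and Neto2 fell. Of 22 listed ionotropic glutamate receptor genes 14 were tested, and these 3 fell (21.4%, beside 2.54% of all tested genes). The kainate receptor subunits Grik1, Grik3 and Grik4 were under the filter and not tested. Grik2 was at 298, 346, 308 and 281 CPM in HttQ175/+ mice 1 to 4, against 533, 503 and 529 CPM in WT mice 1 to 3 (log2 fold change -0.88 ± 0.14, adjusted p = 0.00217). Neto2 was at 54.7, 64.9, 67.9 and 101 CPM in HttQ175/+ mice 1 to 4, against 191, 123 and 176 CPM in WT mice 1 to 3 (log2 fold change -1.27 ± 0.23, adjusted p = 0.00501). Neto1 was at 122 to 164 CPM in HttQ175/+ mice against 193 to 229 CPM in WT mice (log2 fold change -0.71 ± 0.17, adjusted p = 0.026). Neto1 did not pass without HttQ175/+ mouse 1 or 2 or WT mouse 1 or 3, without TMM scaling, in the deeper nuclei or with equal nuclei (adjusted p up to 0.159). The AMPA receptor subunit Gria2 was at 3829.6 to 4200.4 CPM in HttQ175/+ mice against 3857 to 4672 CPM in WT mice (log2 fold change -0.17 ± 0.11, adjusted p = 0.426), and the NMDA receptor subunit Grin2b at 1055 to 1555 CPM in HttQ175/+ mice against 1674 to 1832 CPM in WT mice (log2 fold change -0.52 ± 0.14, adjusted p = 0.0508), neither past the threshold. Among 25 tested scaffold and spine actin genes 4 fell (16%) and 1 rose (4%), beside 2.54% and 1.46% of all tested genes. Ppp1r9a, the actin-binding scaffold neurabin, was at 513 to 597 CPM in HttQ175/+ mice against 851 to 942 CPM in WT mice (log2 fold change -0.86 ± 0.13, adjusted p = 0.00149). Kalrn, an exchange factor for Rac in spines, was at 315 to 402 CPM in HttQ175/+ mice against 535 to 640.3 CPM in WT mice (log2 fold change -0.87 ± 0.14, adjusted p = 0.00331), and the actin regulator Baiap2 and the actinin Actn2 were the other falls. Shank1, a master scaffold of the postsynaptic density, rose and was at 139, 116, 139 and 162 CPM in HttQ175/+ mice 1 to 4, against 78.7, 37.6 and 58.5 CPM in WT mice 1 to 3 (log2 fold change 1.13 ± 0.23, adjusted p = 0.0117). Shank1 did not pass in thinned nuclei (adjusted p up to 0.0718). Baiap2 did not pass without HttQ175/+ mouse 1 or 2 or WT mouse 1 or 3, without TMM scaling, without the filter or in thinned nuclei (adjusted p up to 0.133). The falls numbered 2 without HttQ175/+ mouse 1 or 2 or WT mouse 1. limma called 0 of 12 tested GABA receptor genes and 0 of 6 genes of GABA synthesis and transport, with 3 and 2 at an unadjusted p under 0.05. Of all 8796 tested genes 3.99% were called and 1553 were at an unadjusted p under 0.05, so lists this short cannot show that none changed.

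Genes of transmitter release were called in both directions. Of 43 tested 3 rose (6.98%) and 2 fell (4.65%), beside 1.46% and 2.54% of all tested genes. Without 1 mouse the rises numbered 1 or 2, and 1 without HttQ175/+ mouse 3 or 4. The median of -0.04 had the opposite sign without TMM scaling (0.09). Syt2, a fast calcium sensor of release, was at 32.5, 32.6, 17.5 and 25.2 CPM in HttQ175/+ mice 1 to 4, against 89.4, 74.8 and 69.6 CPM in WT mice 1 to 3 (log2 fold change -1.56 ± 0.24, adjusted p = 0.0021). Unc13b, which primes vesicles, was at 48.2, 67.5, 76.7 and 75.7 CPM in HttQ175/+ mice 1 to 4, against 19.8, 23.2 and 29.9 CPM in WT mice 1 to 3 (log2 fold change 1.22 ± 0.23, adjusted p = 0.00756), whereas its relative Unc13c was at 190.2 to 294 CPM in HttQ175/+ mice against 318 to 402 CPM in WT mice (log2 fold change -0.79 ± 0.18, adjusted p = 0.0202). Unc13b did not pass with equal nuclei or in thinned nuclei (adjusted p up to 0.129). The vesicle protein Syp was at 156, 134, 168 and 181 CPM in HttQ175/+ mice 1 to 4, against 85.6, 16.4 and 56.2 CPM in WT mice 1 to 3 (log2 fold change 1.65 ± 0.37, adjusted p = 0.0201). Syp did not pass without HttQ175/+ mouse 3 or 4 (adjusted p up to 0.0709). Unc13c did not pass without HttQ175/+ mouse 3 or 4 or WT mouse 3, with equal nuclei or in thinned nuclei (adjusted p up to 0.0841). Ppfia2, which encodes a liprin of the release site, was the third rise at 0.64 ± 0.17 (adjusted p = 0.0443) and is named after its value was seen. Ppfia2 did not pass without HttQ175/+ mouse 1, 2, 3 or 4 or WT mouse 1, 2 or 3, with sums of UMIs, without nuclei holding an iSPN marker UMI, in the deeper nuclei, with equal nuclei or in thinned nuclei (adjusted p up to 0.269). Of 42 tested adhesion genes 4 fell (9.52%, beside 2.54% of all tested genes) and none rose. Cntn5, a contactin, was at 238, 234, 175 and 172 CPM in HttQ175/+ mice 1 to 4, against 364, 385 and 349 CPM in WT mice 1 to 3 (log2 fold change -0.97 ± 0.17, adjusted p = 0.00411). Cntnap3, a contactin-associated protein, was at 18.7, 14, 12 and 8.18 CPM in HttQ175/+ mice 1 to 4, against 25, 52.4 and 43.3 CPM in WT mice 1 to 3 (log2 fold change -1.47 ± 0.32, adjusted p = 0.0159), and Cntn3 and the leucine-rich repeat protein Lrrtm3 differed by -0.87 ± 0.20 (adjusted p = 0.0255) and -0.58 ± 0.15 (adjusted p = 0.0402). Cntnap3 did not pass without WT mouse 2 (adjusted p up to 0.0693). Cntn3 did not pass without HttQ175/+ mouse 1, 2 or 4 or WT mouse 1 or 3, without TMM scaling, in the deeper nuclei, with equal nuclei or in thinned nuclei (adjusted p up to 0.263). Lrrtm3 did not pass without HttQ175/+ mouse 1, 2, 3 or 4 or WT mouse 1 or 3, without TMM scaling, without the filter, with sums of UMIs, in the deeper nuclei, with equal nuclei or in thinned nuclei (adjusted p up to 0.394). Only 1 of the 4 genes passed without WT mouse 3. Among 28 tested guidance genes 2 fell (7.14%, beside 2.54% of all tested genes). The falls numbered 0 without WT mouse 1 or 2 and at most 1 without any other mouse. Nrp1, a receptor for class 3 semaphorins, was at 4.38, 7.49, 5.22 and 4.22 CPM in HttQ175/+ mice 1 to 4, against 28.9, 27.4 and 26.8 CPM in WT mice 1 to 3 (log2 fold change -1.91 ± 0.34, adjusted p = 0.00482), and it left the fit when a WT mouse was left out, since only the WT mice reached the filter. Sema7a differed by -0.91 ± 0.24 (adjusted p = 0.0449). Sema7a did not pass without HttQ175/+ mouse 1, 2, 3 or 4 or WT mouse 1 or 2, without TMM scaling, without the filter, in the deeper nuclei, with equal nuclei or in thinned nuclei (adjusted p up to 0.186).

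Between the membrane and the nucleus, 3 of 32 tested genes of Ras to ERK signalling fell (9.38%, beside 2.54% of all tested genes) and none rose. Rap1gap, which switches off the GTPase Rap1, was at 279, 252, 467 and 450.3 CPM in HttQ175/+ mice 1 to 4, against 917, 933 and 905 CPM in WT mice 1 to 3 (log2 fold change -1.51 ± 0.20, adjusted p = 0.000783). Rasgrp2, which switches Rap1 on, fell too, as given with the matrix markers. Spry2, an inhibitor of receptor tyrosine kinase signalling, was at 48.7 to 81.6 CPM in HttQ175/+ mice against 94.5 to 167 CPM in WT mice (log2 fold change -1.10 ± 0.23, adjusted p = 0.0153). Spry2 did not pass without HttQ175/+ mouse 1 or WT mouse 1, in the deeper nuclei or with equal nuclei (adjusted p up to 0.094).

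Among transcription factors of spiny neuron identity 30 of 42 listed genes were tested, 5 fell (16.7%, beside 2.54% of all tested genes) and none rose. The falls numbered 3 without HttQ175/+ mouse 1 or WT mouse 2, and the list median was -0.20. Foxo1, a factor of the forkhead family, was at 54, 46.5, 58.8 and 48.9 CPM in HttQ175/+ mice 1 to 4, against 99.3, 137 and 132 CPM in WT mice 1 to 3 (log2 fold change -1.30 ± 0.19, adjusted p = 0.00141). Bcl11b, also called Ctip2, which these neurons need to differentiate, was at 279, 299, 287 and 354 CPM in HttQ175/+ mice 1 to 4, against 417, 525 and 519 CPM in WT mice 1 to 3 (log2 fold change -0.79 ± 0.15, adjusted p = 0.0072). Npas2, a partner of the clock factor BMAL1, was at 19.3 to 36.5 CPM in HttQ175/+ mice against 53.2 to 72.5 CPM in WT mice (log2 fold change -1.14 ± 0.24, adjusted p = 0.0144). Id4 and Foxp1 were the other falls. Npas2 did not pass without HttQ175/+ mouse 1 or WT mouse 2 or in thinned nuclei (adjusted p up to 0.191). Among 38 tested Polycomb and histone methylation genes 3 rose (7.89%, beside 1.46% of all tested genes) and none fell. Of the 3, Sfmbt2 and Cbx8 reached the filter in HttQ175/+ mice only and could enter the test only by being higher there. The count is therefore a description of the list. Sfmbt2 had 118 UMIs in all HttQ175/+ dSPN nuclei and 1 UMI in all WT dSPN nuclei, a ratio per UMI sequenced of 59.5 with an exact 95% counting interval of 10.5 to 2369. It was found in 3.08% of thinned oligodendrocytes of HttQ175/+ mice too, beside 3.55% of thinned dSPN nuclei, and in none of either type in WT mice, and at this depth the nuclei that these UMIs came from cannot be told apart. Cbx8, a reader of the Polycomb mark, was at 46.9, 28.8, 26.4 and 28.3 CPM in HttQ175/+ mice 1 to 4, against 1.21, 2.75 and 5.01 CPM in WT mice 1 to 3 (log2 fold change 2.37 ± 0.36, adjusted p = 0.00162). Among 34 tested RNA-binding regulators Celf2 fell (2.94%) and Elavl2 and Khdrbs2 rose (5.88%), beside 2.54% and 1.46% of all tested genes. The splicing factor Celf2 was at 1529 to 1869 CPM in HttQ175/+ mice against 2319.6 to 2903 CPM in WT mice (log2 fold change -0.70 ± 0.12, adjusted p = 0.00391). Elavl2, which binds AU-rich elements, was at 41.1 to 48 CPM in HttQ175/+ mice against 14.3 to 19.4 CPM in WT mice (log2 fold change 1.18 ± 0.23, adjusted p = 0.00889). Khdrbs2, a splicing regulator, was at 64.7 to 92.8 CPM in HttQ175/+ mice against 24.3 to 44.8 CPM in WT mice (log2 fold change 1.06 ± 0.23, adjusted p = 0.0185). Khdrbs2 did not pass without HttQ175/+ mouse 3 or WT mouse 1 or 2 or in thinned nuclei (adjusted p up to 0.0806). Celf2 did not pass without the filter (adjusted p up to 0.0664). Elavl2 did not pass with equal nuclei or in thinned nuclei (adjusted p up to 0.186).

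**Figure D4:**
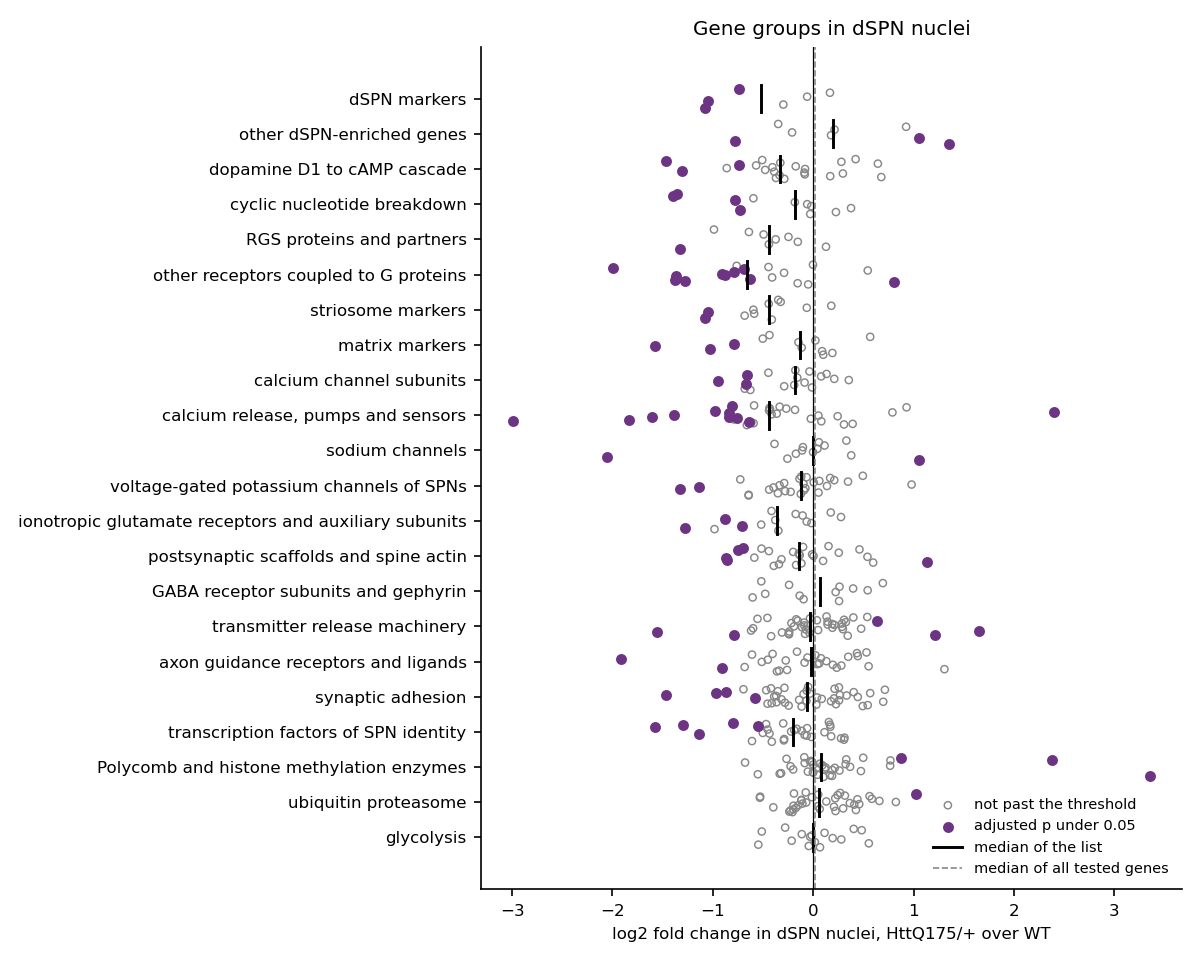
Log2 fold change in dSPN nuclei, HttQ175/+ over WT (x axis), of each tested member of 22 gene lists (rows), with filled points for an adjusted p under 0.05 and a black bar at the median of the list; the dashed line is the median of all 8796 genes. Filled points lie left of 0 in the signalling and calcium lists, and right of 0 in the Polycomb list, apart from Camk2d in the calcium list and Htr2c among the receptors, which lie right of 0. Sfmbt2 and Cbx8 of the Polycomb list, and Camk2d, reached the filter in HttQ175/+ mice only.

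Of 14 tested genes of neurotrophin and growth factor signalling 1 rose (7.14%) and 2 fell (14.3%), beside 1.46% and 2.54% of all tested genes. The BDNF receptor Ntrk2 was at 143, 123, 87.5 and 110.2 CPM in HttQ175/+ mice 1 to 4, against 212, 177 and 201 CPM in WT mice 1 to 3 (log2 fold change -0.89 ± 0.19, adjusted p = 0.0153). Sorcs2, a sorting receptor that binds neurotrophin receptors, was at 78.8, 46.8, 58.3 and 53.8 CPM in HttQ175/+ mice 1 to 4, against 129, 121 and 101 CPM in WT mice 1 to 3 (log2 fold change -1.07 ± 0.21, adjusted p = 0.00826). Ntrk2 did not pass without HttQ175/+ mouse 4 or WT mouse 1 or 3 or in thinned nuclei (adjusted p up to 0.138). Sorcs2 did not pass in thinned nuclei (adjusted p up to 0.0666). Nrn1, a protein that promotes neurite growth, had 102 UMIs in HttQ175/+ and 1 UMI in WT dSPN nuclei (ratio per UMI sequenced 51.4, exact 95% counting interval 9.02 to 2050). After thinning it was found in 4.51% of dSPN nuclei of HttQ175/+ mice and in 2.39% of their oligodendrocytes, against 0.204% and 0% in WT mice. Of 20 tested matrix genes 2 rose and 2 fell, 10% each, and Col11a1, Ndst3 and Abi3bp among them reached the filter in 1 genotype only. Abi3bp, a matrix protein, was at 14.1, 7.4, 10.6 and 8.11 CPM in HttQ175/+ mice 1 to 4, against 75.2, 85.4 and 109.6 CPM in WT mice 1 to 3 (log2 fold change -2.89 ± 0.26, adjusted p = 4.61e-05), and it too left the fit without any 1 WT mouse. Spock3, a proteoglycan, was at 58.1 to 116 CPM in HttQ175/+ mice against 179.6 to 230.1 CPM in WT mice (log2 fold change -1.44 ± 0.21, adjusted p = 0.00155). Col11a1, a fibrillar collagen also used as a marker of eccentric neurons, was at 72.1, 45.3, 54.4 and 48.5 CPM in HttQ175/+ mice 1 to 4, against 10.6, 4.62 and 9.01 CPM in WT mice 1 to 3 (log2 fold change 2.24 ± 0.28, adjusted p = 0.000542). The heparan sulphate enzyme Ndst3 was at 25.6 to 39.5 CPM in HttQ175/+ mice against 3.49 to 14.6 CPM in WT mice (log2 fold change 1.66 ± 0.34, adjusted p = 0.0117). Col11a1 did not pass in thinned nuclei (adjusted p up to 0.186). Ndst3 did not pass in thinned nuclei (adjusted p up to 0.183). Among 26 lipid enzymes Cers2, which makes very long-chain ceramides, was at 53.6, 60.9, 60.1 and 45 CPM in HttQ175/+ mice 1 to 4, against 3.92, 17.4 and 7.8 CPM in WT mice 1 to 3 (log2 fold change 2.15 ± 0.32, adjusted p = 0.00149). Pitpnm2, a phosphatidylinositol transfer protein, was at 112 to 122 CPM in HttQ175/+ mice against 199.9 to 208 CPM in WT mice (log2 fold change -0.90 ± 0.15, adjusted p = 0.00391). Single genes passed among 38 proteasome genes (Psma4, 1.02) and 31 genes of autophagy and lysosomes (Ctsb, -1.004), and both calls were lost with some mice left out. The shares, 2.63% that rose and 3.23% that fell, were near the 1.46% and 2.54% of all tested genes. Psma4 did not pass without HttQ175/+ mouse 1 or 2 or WT mouse 1 or 2, in the deeper nuclei or with equal nuclei (adjusted p up to 0.117). Ctsb did not pass without HttQ175/+ mouse 1, 2 or 4 or WT mouse 1 or 3, without TMM scaling, without the filter, without nuclei holding an iSPN marker UMI, in the deeper nuclei, with equal nuclei or in thinned nuclei (adjusted p up to 0.223). limma called 0 of 16 tested genes of glycolysis and 0 of 8 of retinoid signalling, with 2 and 0 at an unadjusted p under 0.05. These lists too are short beside the 3.99% of all tested genes called and the 1553 of 8796 at that unadjusted p.

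Htt itself was at 123, 197, 192 and 175 CPM in HttQ175/+ mice 1 to 4, against 186, 200.3 and 178 CPM in WT mice 1 to 3, with overlapping genotypes (log2 fold change -0.27 ± 0.18, adjusted p = 0.481). The 3' tags do not show the repeat and do not tell the alleles apart, so its level says nothing of the labels. Among 14 tested genes that modify the disease or the repeat only Rasd2, which encodes the striatal GTPase Rhes, passed; it was at 94.4, 115, 114 and 92.8 CPM in HttQ175/+ mice 1 to 4, against 253, 218 and 243 CPM in WT mice 1 to 3 (log2 fold change -1.29 ± 0.16, adjusted p = 0.000569). Since the knock-in allele can carry linked sequence with it, the neighbours of Htt on chromosome 5 were counted. limma called 0 of 20 tested genes within 1 Mb (2 at an unadjusted p under 0.05) and 1 of 75 within 5 Mb (1.33%), Sorcs2. Of all 8796 tested genes 3.99% were called and 1553 were at an unadjusted p under 0.05. Counts this small cannot tell these neighbours from other genes, and an effect of linked sequence was not tested.

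The genes whose level moved most in CPM included nuclear noncoding RNAs in opposite directions. Meg3, an imprinted long noncoding RNA, was at 32966, 31758, 33524 and 35100 CPM in HttQ175/+ mice 1 to 4, against 21714, 23940 and 20802 CPM in WT mice 1 to 3 (log2 fold change 0.46 ± 0.09, adjusted p = 0.00792), the largest gain of any gene in CPM. Kcnq1ot1, another imprinted noncoding RNA, was at 2205, 2342, 2500.1 and 2617 CPM in HttQ175/+ mice 1 to 4, against 1346, 1686 and 1344 CPM in WT mice 1 to 3 (log2 fold change 0.60 ± 0.12, adjusted p = 0.01). Malat1, a noncoding RNA of nuclear speckles, was at 154590, 153890, 130610 and 138840 CPM in HttQ175/+ mice 1 to 4, against 187570, 167580 and 185070 CPM in WT mice 1 to 3 (log2 fold change -0.45 ± 0.09, adjusted p = 0.012), the largest loss. Malat1 was not past the threshold without TMM scaling. Meg3 did not pass without WT mouse 1 or without the filter (adjusted p up to 0.76). Kcnq1ot1 did not pass without WT mouse 1 or without the filter (adjusted p up to 0.101). Malat1 did not pass without HttQ175/+ mouse 4 or WT mouse 1, without TMM scaling or without the filter (adjusted p up to 0.907). Kcnq1ot1 was also found in more thinned oligodendrocytes, 72.7% in HttQ175/+ mice against 50.3% in WT mice.

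The other rises with the largest gains in CPM were 8 genes. Dync1h1, the heavy chain of the dynein motor, was at 269, 165, 280.2 and 307 CPM in HttQ175/+ mice 1 to 4, against 103, 88.2 and 89.99 CPM in WT mice 1 to 3 (log2 fold change 1.25 ± 0.21, adjusted p = 0.00316). Dmd, which encodes dystrophin, was at 364, 315, 268 and 341 CPM in HttQ175/+ mice 1 to 4, against 177, 127 and 141 CPM in WT mice 1 to 3 (log2 fold change 0.98 ± 0.17, adjusted p = 0.00482). Cep164, a protein of the base of cilia, was at 286, 306, 238 and 262 CPM in HttQ175/+ mice 1 to 4, against 105, 157 and 125 CPM in WT mice 1 to 3 (log2 fold change 0.95 ± 0.17, adjusted p = 0.00594), and the share of thinned oligodendrocytes with it was higher too, 23.6% in HttQ175/+ mice and 12% in WT mice. Klc1, a kinesin light chain, was at 339.5 to 526 CPM in HttQ175/+ mice against 198 to 286 CPM in WT mice (log2 fold change 0.82 ± 0.19, adjusted p = 0.0208). Tsnax, the partner of the RNA-binding protein translin, was at 244 to 362 CPM in HttQ175/+ mice against 99.6 to 204 CPM in WT mice (log2 fold change 1.07 ± 0.23, adjusted p = 0.017). Gprasp2, which sorts receptors after endocytosis, was at 195 to 297 CPM in HttQ175/+ mice against 83.5 to 142 CPM in WT mice (log2 fold change 0.99 ± 0.21, adjusted p = 0.0126). The splicing regulators Srek1 and Rsrp1 differed by 0.88 ± 0.18 (adjusted p = 0.0133) and 0.85 ± 0.22 (adjusted p = 0.046). Rsrp1 was at 1803, 1996, 1679 and 1365 CPM in HttQ175/+ mice 1 to 4, against 651, 1423 and 689 CPM in WT mice 1 to 3, where WT mouse 2 lay inside the range of the HttQ175/+ mice. Rsrp1 did not pass without HttQ175/+ mouse 1, 2, 3 or 4 or WT mouse 1 or 3, without the filter or in the deeper nuclei (adjusted p up to 0.21). Klc1 did not pass without HttQ175/+ mouse 3 or 4 or WT mouse 1 or 2 or in the deeper nuclei (adjusted p up to 0.109). Tsnax did not pass without HttQ175/+ mouse 1 or 3 or WT mouse 2 or 3 (adjusted p up to 0.0789). Gprasp2 did not pass without WT mouse 1 or 3 or in the deeper nuclei (adjusted p up to 0.0884). Srek1 did not pass without WT mouse 3 or in the deeper nuclei (adjusted p up to 0.0629).

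The falls with the largest losses in CPM, beyond those above, were Arpp21, Phactr1, Trank1 and PISD. Arpp21, an RNA-binding target of protein kinase A, was at 1382, 1339, 1532 and 1737 CPM in HttQ175/+ mice 1 to 4, against 2377, 2114 and 2512 CPM in WT mice 1 to 3 (log2 fold change -0.77 ± 0.13, adjusted p = 0.00331). Phactr1, which binds actin and protein phosphatase 1, was at 989.9, 753, 805 and 934 CPM in HttQ175/+ mice 1 to 4, against 1652, 1793 and 1670 CPM in WT mice 1 to 3 (log2 fold change -1.10 ± 0.13, adjusted p = 0.000336). Trank1 was at 572, 429, 631 and 637 CPM in HttQ175/+ mice 1 to 4, against 1153, 1618 and 1234 CPM in WT mice 1 to 3 (log2 fold change -1.36 ± 0.16, adjusted p = 0.000336), and was also found in fewer thinned oligodendrocytes (17.2% in HttQ175/+ mice against 25.3% in WT mice). PISD, spelt so in the files and named for phosphatidylserine decarboxylase, was at 1690.5, 2029.7, 2258 and 2066 CPM in HttQ175/+ mice 1 to 4, against 3122, 3727 and 3267 CPM in WT mice 1 to 3 (log2 fold change -0.88 ± 0.12, adjusted p = 0.00119).

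Further falls, ranked 13 to 22 by fold change among genes of at least 20 CPM on average whose genotypes did not overlap, were 10 genes, Pcp4 and Id4 among them. Arpp19, a relative of the phosphatase inhibitor ENSA, was at 162, 137, 149 and 166 CPM in HttQ175/+ mice 1 to 4, against 460.3, 333 and 479 CPM in WT mice 1 to 3 (log2 fold change -1.56 ± 0.17, adjusted p = 0.000188). Hrk, a pro-apoptotic member of the BCL2 family, was at 35.5, 21.3, 29.3 and 19 CPM in HttQ175/+ mice 1 to 4, against 83, 98.2 and 67 CPM in WT mice 1 to 3 (log2 fold change -1.67 ± 0.24, adjusted p = 0.00141). Hrk did not pass in thinned nuclei (adjusted p up to 0.0984). Mt1, a metallothionein that binds zinc and copper, was at 35.1, 22.4, 32.2 and 10.1 CPM in HttQ175/+ mice 1 to 4, against 87.7, 83.1 and 57 CPM in WT mice 1 to 3 (log2 fold change -1.68 ± 0.32, adjusted p = 0.00826). Lzts3, a scaffold of the postsynaptic density that binds Shank proteins, was at 125, 171, 221 and 120.3 CPM in HttQ175/+ mice 1 to 4, against 502, 496 and 430.4 CPM in WT mice 1 to 3 (log2 fold change -1.72 ± 0.20, adjusted p = 0.00028). Mhrt, a noncoding RNA antisense to Myh7, was at 140.4 to 174 CPM in HttQ175/+ mice against 397 to 469 CPM in WT mice (log2 fold change -1.63 ± 0.15, adjusted p = 4.66e-05); whether counting used strand is not given, so its reads and those of Myh7 cannot be told apart. Slc26a10, Car11 and Ciart were the others not yet named, at -1.66, -1.64 and -1.78. Mt1 did not pass without WT mouse 1 or in the deeper nuclei (adjusted p up to 0.0752). Car11 did not pass without HttQ175/+ mouse 1 or 4 or WT mouse 1 or 3 (adjusted p up to 0.11). Syp and Faah were among the rises of the same ranks. Ahsa2, related to an activator of HSP90, was at 35.5, 49.9, 45 and 37.2 CPM in HttQ175/+ mice 1 to 4, against 16.3, 8.26 and 6.68 CPM in WT mice 1 to 3 (log2 fold change 1.64 ± 0.29, adjusted p = 0.00489). Emb, an adhesion protein, was at 28.9 to 41.1 CPM in HttQ175/+ mice against 5.37 to 11.3 CPM in WT mice (log2 fold change 1.53 ± 0.29, adjusted p = 0.00839). Dhrs1, a short-chain dehydrogenase, was at 47 to 74.9 CPM in HttQ175/+ mice against 14.4 to 21.6 CPM in WT mice (log2 fold change 1.41 ± 0.24, adjusted p = 0.00439). The protocadherin Pcdhb19 rose by 1.52 and Epb41l4b, Galnt16, Pnpla3 and Map2k3 by 1.53, 1.45, 1.53 and 1.37. Epb41l4b did not pass without HttQ175/+ mouse 1 or WT mouse 1 or with equal nuclei (adjusted p up to 0.07). Galnt16 did not pass without HttQ175/+ mouse 1, 2, 3 or 4 or WT mouse 1 or in thinned nuclei (adjusted p up to 0.172). Pnpla3 did not pass without HttQ175/+ mouse 1, 2 or 4 or WT mouse 2 or 3, without the filter or in the deeper nuclei (adjusted p up to 0.15). Map2k3 did not pass without HttQ175/+ mouse 1, 2 or 4 or WT mouse 2 or 3, without the filter or in the deeper nuclei (adjusted p up to 0.138).

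Genes that fell had the longer spans in the genome. The median span from start to end in GENCODE was 63.9 kb for 218 genes that fell, 23.1 kb for 128 that rose and 28.7 kb for 8514 tested genes with coordinates, and these are descriptions without a test. Promoters of genes that fell held TATAAA on either strand in 13.5% of 111 genes, beside 5.63% of 71 that rose, 5.84% of 5227 tested and 14.8% of 22862 in the table.

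The same 4 HttQ175/+ and 3 WT mice also give the change in iSPNs, so each value is set beside its own. For this both types are on the scale of log2(CPM + 8.31 CPM), since iSPN sums are shallower, and dSPN values of low genes are smaller than those above. Pde10a had a log2 fold change -1.36 ± 0.10 in dSPNs and -1.26 ± 0.11 in iSPNs, and Adcy5 had a log2 fold change -1.46 ± 0.14 in dSPNs and -1.32 ± 0.16 in iSPNs. For Cnr1 the values were -1.97 ± 0.18 in dSPNs and -2.14 ± 0.26 in iSPNs, and for Meg3 0.46 ± 0.08 and 0.49 ± 0.08. The change in dSPNs minus that in iSPNs was fitted within mice in 5903 genes with limma, and 0 genes (0%) passed, with 366 at an unadjusted p under 0.05. The 5 with the smallest p among those more positive in dSPNs were Rpl37, Eed, Ptma, Cox7b and Tcf3. Rpl37, a ribosomal protein, had a log2 fold change 0.76 ± 0.31 in dSPNs and -1.30 ± 0.41 in iSPNs (difference 2.06 ± 0.36, adjusted p = 0.502), and Eed, a core subunit of Polycomb complex PRC2, had a log2 fold change 0.67 ± 0.23 in dSPNs and -0.59 ± 0.31 in iSPNs (difference 1.26 ± 0.26, adjusted p = 0.668). The 5 among those more negative in dSPNs were Atg14, Cask, Tbc1d32, Fam171a2 and Ngly1, and Atg14, an autophagy factor, had a log2 fold change -0.68 ± 0.21 in dSPNs and 0.75 ± 0.32 in iSPNs (difference -1.43 ± 0.30, adjusted p = 0.668). Ryr1 had a log2 fold change -2.83 ± 0.22 in dSPNs and -1.46 ± 0.26 in iSPNs, and Dync1h1 a log2 fold change 1.22 ± 0.20 in dSPNs and 0.27 ± 0.20 in iSPNs; their differences were -1.37 ± 0.36, adjusted p = 0.668 and 0.95 ± 0.26, adjusted p = 0.668. No gene was therefore shown to change in dSPNs by another amount than in iSPNs, and the SE of these differences, 0.21 for Pde10a and 0.36 for Ryr1, sets what could be seen.

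**Figure D5:**
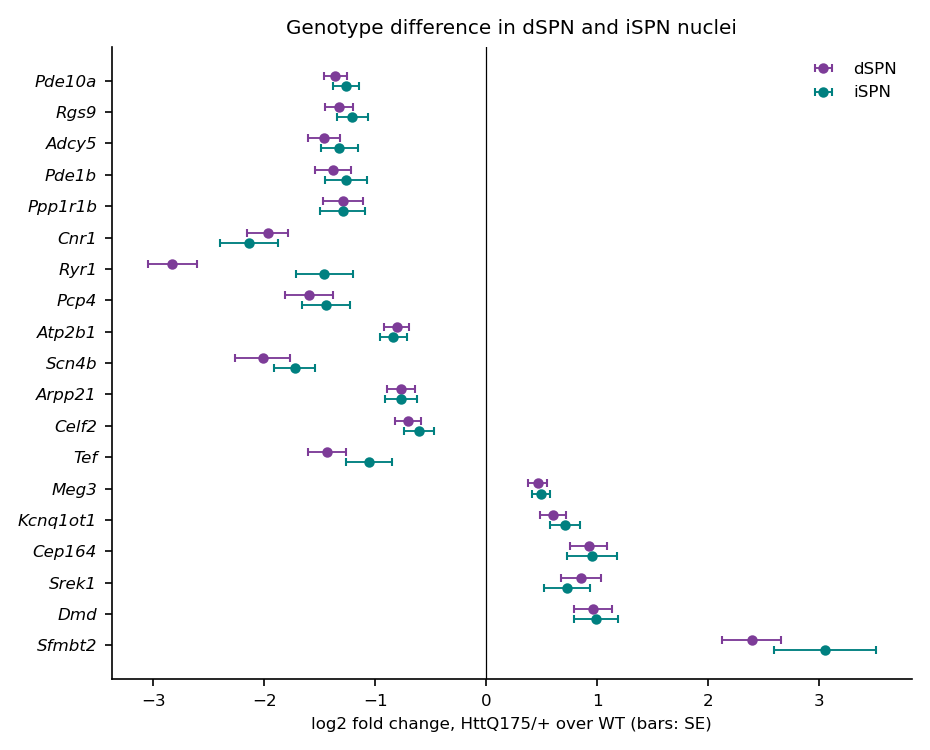
Log2 fold change, HttQ175/+ over WT (x axis), with its SE, of 19 named genes (rows) in dSPN nuclei (purple, upper point) and iSPN nuclei (teal, lower point) of the same 7 mice, both on the scale of log2(CPM + 8.31 CPM). For most of the 19 genes the bars of the 2 types overlap; Ryr1 shows the widest gap, -2.83 against -1.46, and its difference did not pass the test.

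Markers of other cell types in dSPN nuclei were also summed per mouse. The sum over 6 cortical excitatory neuron markers was 19.8 to 39.5 CPM in HttQ175/+ mice against 3.12 to 10.1 CPM in WT mice, with Slc17a7 and 4 others under the filter, and only Neurod2 was tested (68 UMIs in HttQ175/+ and 2 in WT dSPN nuclei). Without Neurod2 the other 5 summed to 0 to 6.92 CPM in HttQ175/+ mice and 3.12 to 8.14 CPM in WT mice. The sum over 7 eccentric neuron markers was 108 to 151 CPM in HttQ175/+ mice against 72.8 to 98.4 CPM in WT mice, and without Col11a1 the other 6 summed to 59.5 to 79.0 CPM in HttQ175/+ mice and 68.2 to 87.8 CPM in WT mice. The sums over 6 microglia markers and 7 neuroblast markers were 24.2 to 42.7 CPM in HttQ175/+ mice against 15.8 to 23.8 CPM in WT mice and 116 to 167 CPM in HttQ175/+ mice against 71.1 to 81.8 CPM in WT mice. These 4 sums were higher in all HttQ175/+ mice. Without Neurod2 and without Col11a1, the members of largest gain, the genotypes overlapped in the cortical and eccentric sums, and without Sox11 the other 6 neuroblast markers were at 65.8 to 83.8 CPM in HttQ175/+ mice and 38.8 to 50.9 CPM in WT mice. Their part in the results above was not tested. The sums for iSPNs, Sst, Pvalb and Pnoc, and cholinergic interneurons, astrocytes, oligodendrocytes and their progenitors, and vascular cells overlapped between genotypes. Among iSPN markers Penk, the enkephalin precursor, was at 8.98, 28.6, 27.6 and 40.5 CPM in HttQ175/+ mice 1 to 4, against 75.7, 79.1 and 112 CPM in WT mice 1 to 3 in dSPN nuclei (log2 fold change -1.85 ± 0.34, adjusted p = 0.00632). Penk did not pass in the deeper nuclei or with equal nuclei (adjusted p up to 0.0607). In iSPN nuclei Penk fell as well (on the scale of 8.31 CPM, log2 fold change -2.03 ± 0.18, adjusted p = 1.49e-05), and 1.88% of HttQ175/+ and 4.90% of WT thinned dSPN nuclei held a UMI of it, against 7.28% and 10.4% of oligodendrocytes.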

How the data were processed

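The authors deposited 1 table per mouse of natural log values, ln(1 + UMIs per 10000 UMIs of a nucleus), from Cell Ranger 3.0.2 and Seurat on mm10, per the submitters' processing notes. Nucleus filters, doublet removal and strand use were not given in the sources used here. A smoothed table was not used. Linear values were averaged over the D1.MSN nuclei of a mouse as CPM, scaled by TMM, and tested with limma 3.58.1 in R 4.3.3 as log2(CPM + 3.67), a pseudocount equal to 2 UMIs at the depth of the median mouse. Genes needed 15 UMIs in all and 10 at the median depth in 3 mice. Whole UMIs were recovered for 100% of values above 0 (tolerance 0.02). Thinning drew 1128 UMIs from each nucleus, the lowest depth, so none was left out. Shares were compared by exact permutation (scipy 1.17.1). The fits were checked on simulated data. Intervals of UMI ratios cover counting error only. The members and lists were chosen with earlier results of these data known.

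Named genes were the 6 markers, up to 4 passing members of each list by smallest adjusted p with examples that did not pass, the 10 rises and 10 falls with the largest CPM difference, ranks 13 to 22 of each direction by fold change, and 5 genes each way for dSPNs minus iSPNs. That difference, and the values of both types set beside each other, used a pseudocount of 8.31 CPM. Alternatives changed the scaling, pseudocount, filter, averaging, depth and mice. Promoters are from RefSeq and spans from GENCODE vM21. Genes with provisional names, 23 of the 351 called, were counted and not named, and some other genes are not reported here.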

Additional observations from a re-analysis of the deposited data

Results flagged for a closer look

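In dSPN nuclei, 122 values were examined for a mouse standing apart among the 4 HttQ175/+ mice, by its gap to the nearest other over the range, and 4 (3.28%) were found, where chance alone gives about 5%. Ppp1r1b was at 305 CPM in HttQ175/+ mouse 3, and at 214 to 222 CPM in the other 3. Cbx8 was at 46.9 CPM in HttQ175/+ mouse 1, and at 26.4 to 28.8 CPM in the others. Nrn1 was at 65.9 CPM in HttQ175/+ mouse 4, and at 25.8 to 31.9 CPM in the others. Dhrs1 was at 74.9 CPM in HttQ175/+ mouse 3, and at 47.0 to 51.7 CPM in the others. All 4 genes were past the threshold in each of the 7 fits that left out 1 mouse.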

How the results depend on the processing

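With 1 mouse left out, the 351 genes called in dSPNs became 206 to 322, fewest without WT mouse 1 and 210 without HttQ175/+ mouse 1. Thinned nuclei gave 165 calls and nuclei with at least 2000 UMIs 228; an equal 119 nuclei per mouse, chosen after seeing the data, gave 202. These fits rest on fewer mice, nuclei or UMIs. The 388 calls without TMM scaling included 290 of the 351. Of 110 named genes past the threshold, 68 stayed past it in every fit without 1 mouse in which they were tested, 62 in every other alternative and 57 in all. Thinning lost 27 of 98, deeper nuclei 21 of 108 and equal nuclei 18 of 103, and none of the 110 changed sign in any fit. Isl1, which did not pass, changed sign to 0.062 without TMM scaling, 0.053 in nuclei with at least 2000 UMIs and 0.21 with equal nuclei, and ranged from -0.14 to 0.012 without 1 mouse. The difference between dSPNs and iSPNs gave 0 calls under every alternative run (no TMM scaling, both pseudocounts and 7 fits without 1 mouse), with the smallest adjusted p between 0.108 and 0.858. Without 1 mouse the dSPN share of all nuclei differed by -0.22 to 3.21 percentage points, reversed without HttQ175/+ mouse 1 (-0.11) or WT mouse 2 (-0.22); the cause was not tested. The share of dSPN and iSPN nuclei differed by 5.51 to 8.23 percentage points and median UMIs by -759 to -429. No paired analysis was possible because no label pairs mice across genotypes. Depth limits low genes: 10 UMIs at the median depth was the floor.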

Other observations

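Genes of the circadian clock and its output, a list made after the values of some were seen, held 5 falls and no rise in dSPNs among 20 of 22 tested. Of all tested genes 2.54% fell, and a count from a list made in this way is no test. The median log2 fold change of the list was -0.50, beside 0.02 over all tested genes. Tef, Dbp and Hlf, the 3 factors of the PAR family that carry clock output, all fell. Tef was at 270.3, 205, 244 and 184 CPM in HttQ175/+ mice 1 to 4, against 545, 693 and 483 CPM in WT mice 1 to 3 (log2 fold change -1.46 ± 0.17, adjusted p = 0.000336). Dbp was at 90.5, 142, 88 and 70.4 CPM in HttQ175/+ mice 1 to 4, against 218, 254 and 184 CPM in WT mice 1 to 3 (log2 fold change -1.29 ± 0.22, adjusted p = 0.00408), and Hlf at 84.3 to 121 CPM in HttQ175/+ mice against 142 to 172 CPM in WT mice (log2 fold change -0.85 ± 0.18, adjusted p = 0.0145). Ciart, a repressor of the clock also called CHRONO, was at 22.7, 13.4, 27.9 and 39.2 CPM in HttQ175/+ mice 1 to 4, against 87.6, 120.3 and 58 CPM in WT mice 1 to 3 (log2 fold change -1.78 ± 0.31, adjusted p = 0.00416), and Npas2 fell as given above. All HttQ175/+ mice lay below all WT mice for these 5 genes. This adds little to the calls, since the genotypes did not overlap for 347 of the 351 called genes. Hlf did not pass without HttQ175/+ mouse 1 or WT mouse 1, in the deeper nuclei or with equal nuclei (adjusted p up to 0.318). The core genes Clock, Arntl, Per1, Per2, Per3, Cry1, Cry2 and Nr1d1 did not pass, with Nr1d1 at -0.70 ± 0.20 (adjusted p = 0.0637) and Per2 at -0.82 ± 0.30 (adjusted p = 0.157). In iSPNs of the same mice, with a pseudocount of 8.31 CPM, limma called Tef (-1.06 ± 0.21, adjusted p = 0.0104) and Dbp (-1.14 ± 0.24, adjusted p = 0.0162). Ciart (-1.41 ± 0.36, adjusted p = 0.0534), Hlf (-0.68 ± 0.21, adjusted p = 0.112) and Npas2 (-1.02 ± 0.32, adjusted p = 0.116) did not pass there. The labels used here give no hour of collection for any mouse, and its part in these values was not tested.

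The promoter of Ciart in RefSeq is shown because it holds CACGTG, the E-box that clock factors bind, 3 times, starting 116, 58 and 44 bases before the start site (capitals; GRCm38.p6, chr3:95882179-95882478, minus strand). CACGTG reads the same on both strands.
Ciart: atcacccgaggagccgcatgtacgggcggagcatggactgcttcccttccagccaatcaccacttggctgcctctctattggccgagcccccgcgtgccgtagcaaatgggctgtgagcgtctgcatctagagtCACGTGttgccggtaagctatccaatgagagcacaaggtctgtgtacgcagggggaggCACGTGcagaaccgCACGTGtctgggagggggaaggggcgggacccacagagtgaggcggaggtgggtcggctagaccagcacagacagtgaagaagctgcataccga
It was found in 6.31% of 111 promoters of genes that fell, 5.63% of 71 that rose, 11.0% of 5227 tested and 7.12% of 22862 in the table. Of the other falls with promoters examined, Tef has 1 CACGTG in each of its 2 promoters in the table, and Dbp and Npas2 have none.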
